A study of Tursiops truncatus with 17 samples.

Results

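Small non-coding RNA genes were taken from messenger RNA libraries of the cerebral cortex of bottlenose dolphins (Tursiops truncatus). They were chosen by the gene type in the deposited files: 802 snoRNA, 1001 snRNA, 128 misc_RNA and 1101 miRNA genes, which makes 3032 of the 21265 genes in all. No gene carried the type scaRNA, and the 24 genes whose symbols begin with SCARNA were typed as snoRNA. The bloom group held 9 dolphins and the non-bloom group 8, with 1 library from each dolphin, and both groups were wild type per the labels. Bloom and non-bloom name the season of collection, and all samples were frozen archived necropsy tissue; the labels used here state neither sex, age, date nor batch, and any batch that ran along with season and season itself cannot be told apart.

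Small nucleolar RNAs (snoRNAs) guide the chemical modification of ribosomal and spliceosomal RNA, in 2 classes, box C/D and box H/ACA, and many are cut from introns of longer host transcripts. Small nuclear RNAs (snRNAs) form the core of the spliceosome, and the miscellaneous class (misc_RNA) holds 7SK RNA, Y RNA and the RNA parts of RNase P and RNase MRP. MicroRNA (miRNA) genes are transcribed as long primary transcripts from which a hairpin and then the short silencing strand are cut. The mature forms of most of these RNAs carry no poly(A) tail, whereas the libraries were prepared for messenger RNA. Whether a read came from a mature small RNA, a precursor or an overlapping transcript was not tested.

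The libraries held 7680050 to 15635292 reads, recovered from the deposited values. Bloom 9, 5 and 6 stood apart from the rest: 77.2%, 57.0% and 33.5% of their reads were mitochondrial, and they kept 1753299, 4039857 and 6719605 other reads, the 3 lowest of the 17. The summed pan-neuronal markers reached 2616 in bloom 5, 4115 in bloom 6 and 7846 in bloom 9, against 8677 to 15018 in the non-bloom libraries. The median of all 9 bloom libraries, 8409, also lay below the lowest non-bloom library, so low sums were not confined to these 3. The summed oligodendrocyte markers stood at 18050, 18989 and 14050 in the same 3 bloom libraries, against 1619 to 7778 in the non-bloom libraries. Astrocyte markers summed to 6646, 5073 and 6839 there, against 320 to 1800 in the non-bloom libraries. All listed neuronal, astrocyte and oligodendrocyte markers present in the files had reads. In bulk tissue fewer cells of a type and less RNA per cell cannot be told apart. Values are given below as deposited, as CPM, read counts scaled to a common library size, with library sizes adjusted by TMM (trimmed mean of M values), and 1 read is worth 0.571 in bloom 9 and 0.0528 to 0.199 in the other 16 libraries.

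Most small RNA genes had no read in any cortex. Reads fell on 1050 of the 3032 genes (34.6%), against 15818 of 16550 protein-coding genes (95.6%). By type, 408 of 802 snoRNA genes (50.9%) had at least 1 read, as had 308 of 1001 snRNA genes (30.8%), 300 of 1101 miRNA genes (27.2%) and 34 of 128 misc_RNA genes (26.6%). Detection was thin for many of them: 283 had reads in 1 library only, 427 had at least 10 reads over all libraries, and 71 had a read in all 17. Reads occurred in bloom libraries alone for 217 genes and in non-bloom libraries alone for 155, with a median total of 1 read in each case, while 678 genes had reads in both seasons.

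The small RNA genes together took 90670 reads, 0.0519% of the non-mitochondrial reads. A few genes carried most of these: 21.8% belonged to 1 unnamed miRNA gene inside HOOK1 and 54.8% to the 10 most abundant genes. Of the 41854 miRNA reads, 47.3% fell on that gene. Among snoRNA genes the largest share, 18.4% of 34396 reads, fell on 1 copy of SNORD112, and among misc_RNA genes 56.9% of 6885 reads fell on 1 copy of 7SK. Of the 7535 snRNA reads, 12.5% fell on the leading U6 gene. The files do not pair 1029 of the 1101 miRNA genes with a name, so they are given here by position or neighbour.

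Several families exist as many copies, of which part were read. U6, the snRNA at the catalytic centre of the spliceosome, had 807 gene copies, 243 of them with reads and 5 with enough for the season test. 7SK, which holds the elongation factor P-TEFb inactive, had 108 copies and 22 with reads, and 93.3% of the family's reads fell on its leading copy. SNORD112, a box C/D snoRNA that in humans lies in the imprinted DLK1 to DIO3 region, had 75 copies and 16 with reads, with 98.7% of reads on its leading copy. SNORD113 of the same human region had 68 copies and 29 with reads, but 221 reads in all. U1, which recognises the 5′ splice site, had reads on 22 of 45 copies and U2, which binds the branch point, on 12 of 39. Near-identical copies can share reads, so the division of reads within a family is uncertain.

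Other well-known small RNAs were close to the limit of detection. The 8 SNORD115 genes, whose human counterparts are brain-specific, had 2 reads in all. Telomerase RNA had 25 reads and vault RNA 7 reads in all 17 libraries, U5 had 87 and U4 97. Of the named miRNA genes, MIR124-1, the precursor of a miRNA abundant in neurons, had 221 reads, MIR7-3 had 11 and MIR9-1 had 1. These are single genes. Other copies may be among the 1029 unnamed miRNA genes, so the reads of each miRNA family are not known.

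Genes inside a protein-coding gene were read more often. By the files' coordinates 1021 of the 3032 genes lay in a protein-coding gene, and 463 of these (45.3%) had reads, against 587 of 2011 (29.2%) of the genes outside. The difference was widest for snoRNA genes, at 66.2% of 334 inside a gene against 40.0% of 468 outside. The genes inside held 36.5% of the small RNA reads. The files used here give no strand, so reads of a small RNA gene and of its overlapping gene cannot be told apart.

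Bloom libraries had reads on more small RNA genes once the depth in non-mitochondrial reads was made equal. As sequenced, the number of small RNA genes with a read was 181 at the lowest, 410 at the median and 470 at the highest of the bloom libraries, against 339, 397 and 427 of the non-bloom libraries. The groups overlapped, and bloom 9 (181), bloom 5 (295), non-bloom 2 (339) and bloom 6 (360) were the 4 lowest libraries. After exact rarefaction of each library to 1753299 non-mitochondrial reads, the expected number was 175.8, 198.3 and 219.8 at the lowest, median and highest of the bloom libraries, against 150.0, 165.2 and 173.0 of the non-bloom libraries. At equal depth the 2 groups did not overlap, and the means were 196.2 ± 14.3 (SD, n = 9) and 164.8 ± 7.39 (SD, n = 8).

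**Figure D1:**
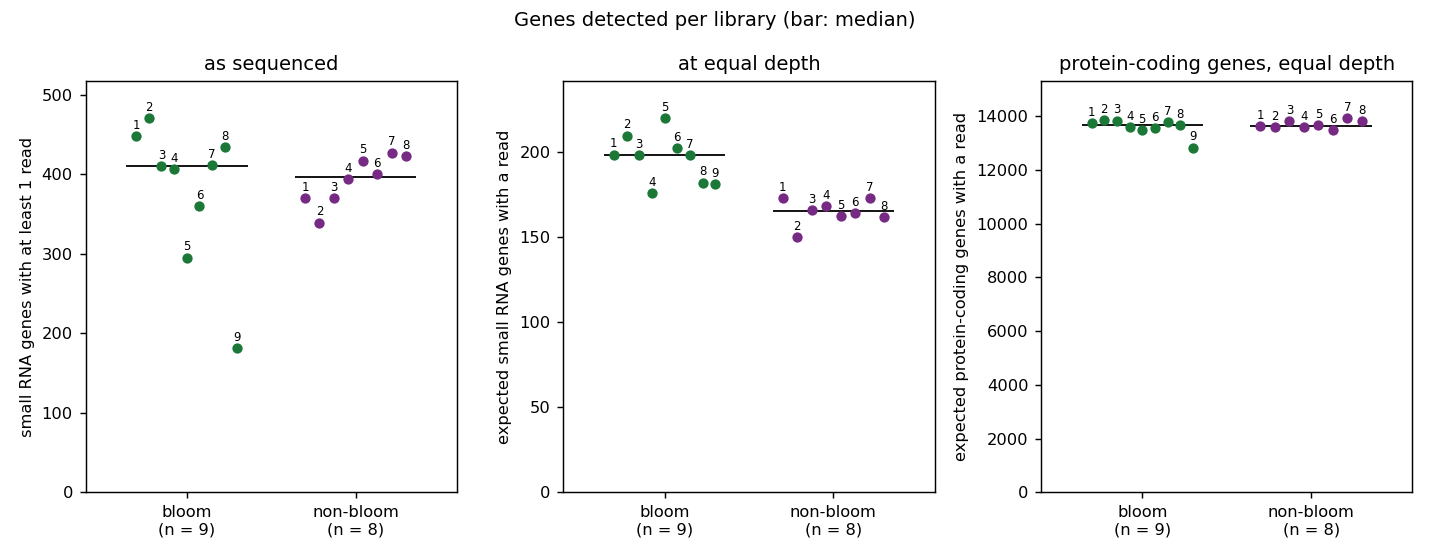
Number of genes with a read in each library, with the 9 bloom libraries left of the 8 non-bloom libraries and the library number beside each point; the bar is the median. Small RNA genes are shown as sequenced and at an equal depth of 1753299 reads, where bloom libraries sit between 175.8 and 219.8 and non-bloom libraries between 150.0 and 173.0; protein-coding genes at equal depth overlap between the groups.

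The same held for miRNA genes alone, with 50.6 to 60.7 expected genes in bloom libraries and 41.8 to 49.5 in non-bloom libraries at equal depth. For snoRNA genes the equal-depth counts overlapped, at 65.0 to 104.8 in bloom libraries and 68.9 to 91.3 in non-bloom libraries, and for snRNA genes they were 29.2 to 47.0 and 27.0 to 37.7. Small RNA genes that overlapped any other gene, of whatever type, gave 52.0 to 86.0 in bloom libraries against 49.1 to 65.7 in non-bloom libraries. Those that overlapped no other gene gave 109.5 to 133.8 against 100.9 to 112.0. Without bloom 5, 6 and 9 the bloom mean was 193.7 ± 12.4 (SD, n = 6), close to the mean of all 9. Protein-coding genes measured the same way overlapped, at 12825 to 13858 genes in bloom libraries and 13468 to 13909 in non-bloom libraries, as did pseudogenes, at 312 to 379 and 358 to 380. These counts are a description with no test.

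The summed level of the small RNA genes was highest in the 3 bloom libraries that stood apart. The sum was 349 at the lowest, 446 at the median and 1630 at the highest of the bloom libraries, against 267, 324 and 428 of the non-bloom libraries. Bloom 9 (1630), bloom 5 (912) and bloom 6 (628) led. Bloom 3 (461), bloom 7 (446) and bloom 2 (433) also lay above every non-bloom library, by less. Bloom 4 (359), bloom 8 (356) and bloom 1 (349) lay within the non-bloom range. The means were 619 ± 419 (SD, n = 9) in bloom and 334 ± 49.6 (SD, n = 8) in non-bloom libraries, and 401 ± 51.4 (SD, n = 6) in bloom libraries without those 3. In bloom 9, 5 and 6 the mitochondrial ribosomal RNA also summed to 99602, 20800 and 7830, against 618 to 2227 in the non-bloom libraries, and its part in the sum was not tested.

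snoRNA genes summed to 250 ± 182 in bloom libraries and 120 ± 14.1 in non-bloom libraries, and to 156 ± 22.9 in the 6 remaining bloom libraries. miRNA genes summed to 275 ± 167 in bloom and 157 ± 29.9 in non-bloom libraries, misc_RNA genes to 51.8 ± 51.1 and 25.2 ± 7.73, and snRNA genes to 42.8 ± 23.6 and 31.6 ± 7.86. Without bloom 5, 6 and 9 the snRNA sum was 30.9 ± 4.80 in bloom libraries, just under that of non-bloom libraries. As CPM of all reads, mitochondrial ones included and without TMM factors, snoRNA genes summed to 157.0 to 219.9 in bloom libraries and 117.4 to 154.5 in non-bloom libraries. On that scale the snoRNA sums of the 2 groups did not overlap, and bloom 9 no longer led, while the sums of the other 3 types overlapped.

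**Figure D2:**
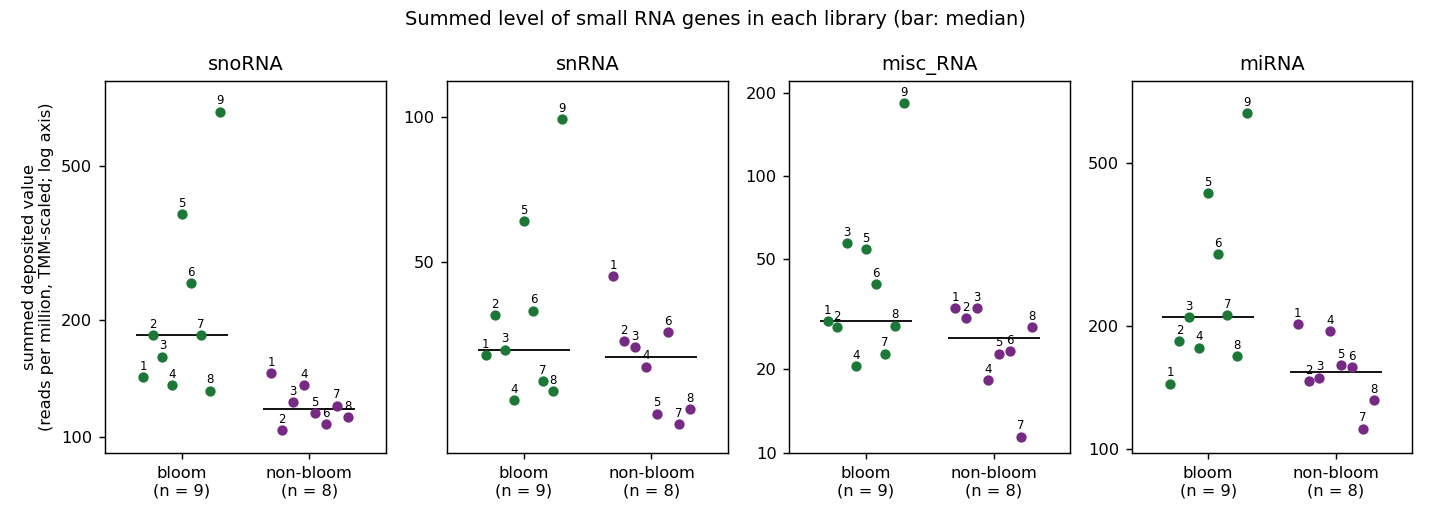
Summed deposited value (CPM on TMM-scaled library sizes, log axis) of snoRNA, snRNA, misc_RNA and miRNA genes in each library, bloom left of non-bloom, with the library number beside each point and the median as a bar. Bloom 9 is highest for each of the 4 types, at 689 for snoRNA genes and 659 for miRNA genes.

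The season comparison asked which of these genes differed between bloom and non-bloom cortex. The filter on low values kept 67 small RNA genes, 34 snoRNA, 6 snRNA, 4 misc_RNA and 23 miRNA, which together held 81.5% of the small RNA reads. Across all 13548 genes tested with limma-trend, 9.16% passed at a Benjamini-Hochberg adjusted p under 0.05, 4.47% higher and 4.69% lower in bloom. Of the 67 small RNA genes 7 passed (10.4%), 6 higher and 1 lower in bloom, a share close to that of all genes. Their median log2 change was 0.27, against -0.00 over all genes tested, and 45 of 67 were positive, 67.2% against 49.7%. With edgeR's quasi-likelihood test 6 of 67 passed, all higher, against 8.29% of all genes, 6.1% higher and 2.19% lower. Without bloom 5, 6 and 9 the median was 0.08, and 3 of 72 passed, all higher, against 2.34% of all genes, 1.68% higher and 0.659% lower. When the level of pan-neuronal markers entered limma as a covariate, 0 of 67 passed, but so did only 4 of all 13548 genes (0.0295%). At an unadjusted p under 0.05 that fit had 5 small RNA genes higher and 0 lower, against 775 and 501 of all genes. None of the 67 small RNA genes had bloom and non-bloom values that did not overlap. Over all genes tested the share was 0.657%, too small for 0 of 67 to be set apart from it.

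The 6 genes that rose were 3 snoRNA genes, SNORD112, SNORA11 and SNORD14, and 3 unnamed miRNA genes, and the gene that fell was an unnamed miRNA gene. SNORD112 (ENSTTRG00000024834, scaffold_113840, bases 44718 to 44789) was the most abundant snoRNA and showed the largest change. Its value was 21.0 at the lowest, 32.1 at the median and 362 at the highest of the bloom libraries, against 8.47, 12.4 and 21.2 of the non-bloom libraries. Only bloom 8 (21.0) fell within the non-bloom range, and bloom 9 (362), bloom 5 (132) and bloom 6 (74.3) were highest. On the log2(value + 1) scale the change was 1.92 (SE 0.44, adjusted p = 0.0268, limma-trend with Benjamini-Hochberg adjustment). It also passed without bloom 5, 6 and 9 (log2 change 1.16, adjusted p = 0.00616), and in 13 of the 17 fits that each left out 1 library. As CPM of all reads, SNORD112 had 27.1 to 82.4 in bloom libraries and 10.3 to 20.7 in non-bloom libraries, so the groups did not overlap on that scale, as for 0.148% of all genes tested. No protein-coding gene overlapped it in the files.

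An unnamed miRNA gene 12917 bases from SOX2 (ENSTTRG00000022968, scaffold_91841, bases 136457 to 136535) had the smallest p of the 67. SOX2 encodes a transcription factor of neural stem cells and glia. The miRNA gene had 7.97, 11.1 and 17.1 at the lowest, median and highest of the bloom libraries, against 3.82, 5.27 and 8.28 of the non-bloom libraries. Non-bloom 5 (8.28) was the only non-bloom library inside the bloom range. The log2 change was 0.95 (SE 0.17, adjusted p = 0.0110 with limma), it passed in all 17 fits that left out 1 library, and without bloom 5, 6 and 9 it was 0.80 (adjusted p = 0.0225).

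SNORA11 (ENSTTRG00000022121, GeneScaffold_2516, bases 22422 to 22551), a box H/ACA snoRNA, lay in MYO19, which encodes a mitochondrial myosin. It had 4.56, 8.57 and 15.3 at the lowest, median and highest of the bloom libraries, against 2.27, 3.95 and 7.30 of the non-bloom libraries. Bloom 5 was highest, and 7 of the 9 bloom libraries lay above every non-bloom library. The log2 change was 0.87 (SE 0.21, adjusted p = 0.0302 with limma), and that of MYO19 was 0.48 (adjusted p = 0.0455), and no other tested small RNA gene passed together with its host. The change of SNORA11 was 0.70 (adjusted p = 0.0730 with limma) without bloom 5, 6 and 9, and it passed in 10 of the 17 fits that left out 1 library.

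SNORD14 (ENSTTRG00000024138, GeneScaffold_769, bases 175065 to 175151), a box C/D snoRNA, lay in HSPA8, which encodes the constitutive heat shock chaperone. It had 0, 1.28 and 3.58 at the lowest, median and highest of the bloom libraries, against 0, 0.170 and 0.686 of the non-bloom libraries. Bloom 9 had no read, which allows a value of up to 1.71, and bloom 8 (0.395) lay within the non-bloom range. The log2 change was 0.84 (SE 0.24, adjusted p = 0.0439 with limma), against -0.26 for HSPA8, which did not pass (adjusted p = 0.396). Without bloom 5, 6 and 9 SNORD14 passed (log2 change 0.76, adjusted p = 0.0363 with limma), but it passed in 3 of the 10 fits that left out 1 library and kept it in the test. The filter on low values kept SNORD14 mainly through its bloom values, so its test leans on the group where it was high.

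The other 2 miRNA genes that rose had low values. The gene on GeneScaffold_969 at bases 70438 to 70525 (ENSTTRG00000022264) lay 8104 bases from CD46, a complement regulator. It had 0.197, 2.39 and 4.00 at the lowest, median and highest of the bloom libraries, against 0.0614, 0.376 and 1.25 of the non-bloom libraries. Bloom 8, 9 and 4 fell within the non-bloom range, and the log2 change was 1.02 (SE 0.26, adjusted p = 0.0336 with limma). The filter on low values kept this gene, too, mainly through its bloom values. The gene on GeneScaffold_2917 at bases 392757 to 392852 lay 8462 bases from TIGIT, an inhibitory receptor of lymphocytes. It had 1.14, 1.71 and 4.18 in bloom libraries, against 0.419, 0.773 and 1.72 in non-bloom libraries, and its log2 change was 0.77 (SE 0.20, adjusted p = 0.0349 with limma). The groups overlapped for both genes, and neither passed without bloom 5, 6 and 9 (adjusted p = 0.0759 and 0.0878 with limma). The gene near CD46 passed in 7 and the gene near TIGIT in 8 of the 17 fits that left out 1 library.

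The miRNA gene that fell (ENSTTRG00000023374, GeneScaffold_3352, bases 224719 to 224813) lay 3914 bases from TLCD2. It had 0.199, 0.655 and 2.62 at the lowest, median and highest of the bloom libraries, against 1.36, 2.11 and 2.39 of the non-bloom libraries. In 7 of the 9 bloom libraries it was below every non-bloom library, while bloom 4 (2.62) was the highest library and bloom 9 (2.29) lay within the non-bloom range. The log2 change was -0.68 (SE 0.20, adjusted p = 0.0462 with limma), it did not pass with edgeR (adjusted p = 0.0589), and it passed in 4 of the 17 fits that left out 1 library.

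**Figure D3:**
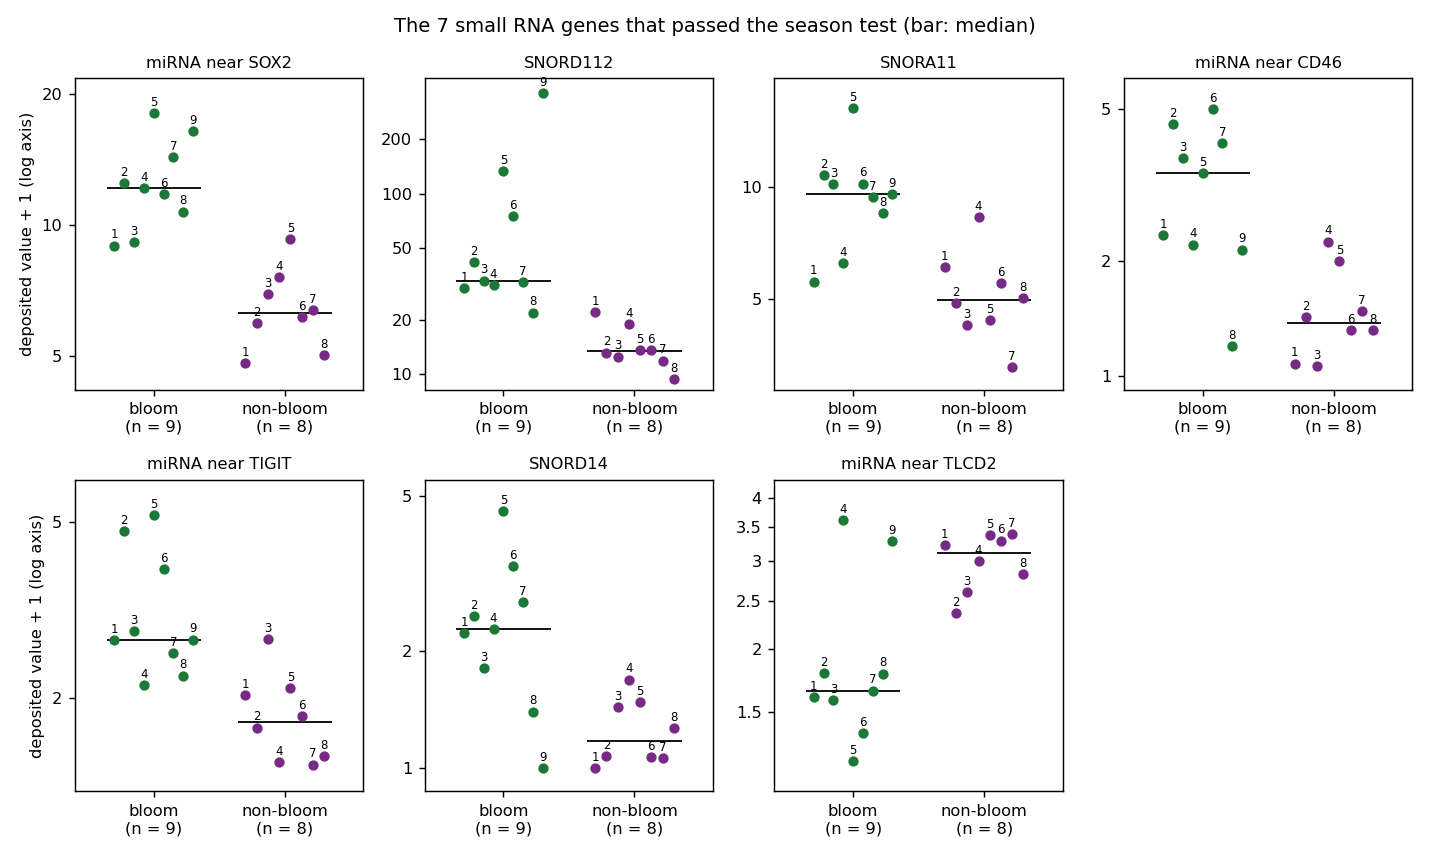
Deposited value plus 1 (log axis) of the 7 small RNA genes that passed the season test, with the 9 bloom libraries left of the 8 non-bloom libraries, the library number beside each point and the median as a bar. In SNORD112 bloom 9 reaches 362, and in the miRNA gene near SOX2 only non-bloom 5 (8.28) enters the bloom range.

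The most abundant small RNA gene, the miRNA gene inside HOOK1 (GeneScaffold_2741, bases 515084 to 515179), did not pass. It had 56.4, 97.4 and 268 at the lowest, median and highest of the bloom libraries, against 44.8, 67.2 and 97.9 of the non-bloom libraries. Bloom 9 (268), bloom 5 (253) and bloom 6 (183) were far above the rest. The log2 change was 0.78 (SE 0.28, adjusted p = 0.0706 with limma), while HOOK1 itself, which encodes a microtubule-binding endosome adaptor, fell by 0.78 on the log2 scale (adjusted p = 0.0387). The miRNA gene averaged 136 ± 79.2 in bloom and 70.5 ± 17.5 in non-bloom libraries (SD, n = 9 and 8), and without bloom 5, 6 and 9 its log2 change was 0.29.

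Of the 14 tested small RNA genes inside a protein-coding gene, 7 had the sign of their host's change and 7 the opposite sign. SCARNA7, a guide RNA of the Cajal body, had a log2 change of 0.67 (adjusted p = 0.340) inside KPNA4, an importin gene that fell by 0.48 on the log2 scale (adjusted p = 0.0498). SNORA22 had 0.11 (adjusted p = 0.722) inside MTHFD1, a gene of folate metabolism that rose by 0.67 (adjusted p = 0.0311). Also, 3 snoRNA genes lay in ribosomal protein genes, where snoU54 had 0.22 inside RPS20, SNORA62 had -0.19 inside RPSA and SNORA33 had -0.06 inside RPS12, and none of the 3 passed. Unnamed miRNA genes inside the beta-tubulin genes TUBB4A, TUBB2A and TUBB4B had log2 changes of -0.06, -0.05 and -0.08, and those of the hosts were -0.31, -0.47 and 0.04. These 3 miRNA genes had the same length of 111 bases, and none of them or of their hosts passed.

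Among the miscellaneous RNAs bloom 9 stood out. RNase P RNA, which trims the 5′ end of transfer RNA, lay 226 bases from PARP2 and had 4.49, 8.22 and 76.0 at the lowest, median and highest of the bloom libraries, against 2.99, 6.75 and 10.9 of the non-bloom libraries. The highest value belonged to bloom 9, and the log2 change was 0.60 (SE 0.42, adjusted p = 0.302) with all libraries and 0.03 without bloom 5, 6 and 9. Y RNA, a partner of the Ro protein, reached 33.7 in bloom 9 and 0.609 to 8.36 in the other bloom libraries, against 0.431 to 2.43 in non-bloom libraries. Its log2 change was 0.82 (SE 0.50, adjusted p = 0.237), and 0.01 without the 3 libraries. 7SK had 11.6, 18.6 and 44.6 in bloom and 6.28, 15.2 and 22.5 in non-bloom libraries. Its log2 change, 0.56 (SE 0.26, adjusted p = 0.134), was 0.38 without the 3 libraries. RNase MRP RNA, which acts in ribosomal RNA processing, lay 358 bases from CCDC107 and had a log2 change of 0.19 (adjusted p = 0.373). None of the 4 passed.

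The 6 tested snRNA genes, 5 U6 copies and 1 U2 copy, had log2 changes between -0.26 and 0.32, and 0 passed with limma, 0 at an unadjusted p under 0.05 and 0 with edgeR. Summed over all copies, U6 had 22.1, 27.5 and 76.0 at the lowest, median and highest of the bloom libraries, against 17.9, 20.9 and 26.0 of the non-bloom libraries. U2 copies ran the other way, at 0.940, 2.18 and 4.00 in bloom libraries and 1.25, 4.60 and 8.82 in non-bloom libraries. Non-bloom 1 (8.82), 3 (7.92), 6 (7.26) and 2 (5.60) lay above every bloom library, while non-bloom 4, 5 and 7 lay below the bloom median. A U2 copy too low for the filter (scaffold_86358, bases 15927 to 16117) had 0, 0.134 and 0.485 in bloom libraries and 0.249, 0.609 and 1.83 in non-bloom libraries. It fell by 0.62 on the log2 scale in the fit with no filter (SE 0.16, adjusted p = 0.0479 with limma). Most of its bloom values rest on fewer than 3 reads, and the 0 of bloom 9 allows up to 1.71, so the size of this fall is uncertain.

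The Cajal body guide RNAs ranged more widely in bloom than in non-bloom libraries. Summed over the 24 SCARNA genes, of which 16 had reads, their level was 5.40, 18.1 and 101 at the lowest, median and highest of the bloom libraries, against 8.12, 10.1 and 15.7 of the non-bloom libraries. Bloom 8 and 4 were the lowest of all 17 libraries and bloom 9 the highest. SCARNA7 reached 56.6 in bloom 9 and 0.658 in bloom 8, against 1.55 to 7.39 in non-bloom libraries, and its log2 change of 0.67 became -0.09 without bloom 5, 6 and 9. SCARNA2 reached 22.9 in bloom 9, and its log2 change was 0.87 (SE 0.43, adjusted p = 0.155). snoU2_19, which lay in KIAA1731, also reached 56.6 in bloom 9, and its log2 change of 0.53 (adjusted p = 0.404) became -0.15 without the 3 libraries.

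A few genes chosen after their values were seen had low values in bloom 5 and 6. SNORD116 and SNORD107 are box C/D snoRNAs of the imprinted SNRPN region, transcribed mainly in neurons in mouse and human, and SNORD107 lay 3514 bases from SNRPN. Summed over 49 copies, SNORD116 had 2.99, 3.27 and 3.43 in bloom 5, 6 and 9 and 4.89 to 7.33 in the other 6 bloom libraries, against 4.97 to 7.05 in the non-bloom libraries. SNORD107 had 1.59, 1.70 and 1.71 in bloom 5, 6 and 9 and 2.82 to 4.63 in the other bloom libraries, against 2.09 to 5.01 in the non-bloom libraries. MIR124-1 had 0.199, 0.242 and 0 there and 0.856 to 1.70 in the other bloom libraries, against 0.430 to 1.19 in the non-bloom libraries. In bloom 9 the SNORD107 value rests on 3 reads and the 0 of MIR124-1 allows up to 1.71, so a low level there cannot be read for either gene. The MIR124-1 values in bloom 5 and 6 rest on fewer than 3 reads each, so a low level of MIR124-1 cannot be read there either. The pan-neuronal marker sums of the 3 libraries, given above, were below every non-bloom library, as was the median of all bloom libraries. The part of these sums in the levels was not tested. None of these genes passed the season test, with log2 changes of -0.38 for SNORD107 (adjusted p = 0.172), -0.38 to 0.04 for the 4 tested SNORD116 copies and -0.02 for MIR124-1.

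Some tested genes lay close together, and their log2 changes are given side by side. SCARNA17 and SCARNA18, which the files place next to each other, had log2 changes of 0.33 and 0.33, and SNORD81 and SNORD79, which in humans lie in introns of GAS5, had 0.40 and 0.43. SNORD79 had the smallest p of the genes that did not pass (adjusted p = 0.0555 with limma), and it passed in the fit with no filter (adjusted p = 0.0486). snoU2_19 in KIAA1731 and SNORA25, SNORA32, SNORA8 and SNORA18 beside it ran from -0.09 to 0.53, with 4 of 5 positive. The group of U2, SNORD22, SNORD31 and SNORD28, of which the 3 snoRNAs lie in the SNHG1 host gene in humans, ran from -0.26 to 0.29, with 1 of 4 positive, and 3 neighbouring SNORD116 copies ran from -0.18 to 0.04. MIR421 had a log2 change of 0.44 (adjusted p = 0.0894), and MIR374B beside it was too low to be tested.

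Within the seasons the tested small RNA genes had a higher median spread than all genes tested. Their median biological coefficient of variation in edgeR, fitted with season in the model, was 0.416, against 0.313 over all genes tested. It was 0.540 for misc_RNA genes, and 0.301 for snRNA genes, below that of all genes. The coefficient can depend on level, and the genes compared were not matched for level. Bloom 9 was the highest library for 28 of the 67 tested small RNA genes (41.8%), against 20.5% of all genes, and bloom 5 for 14 (20.9%), against 10.9% of all genes. For some other tested genes, SNORA62, SNORD28 and SNORD65 among them, bloom 9 had no read and was the lowest library. In bloom 9, where 1 read is worth 0.571, genes with few reads can lie at either end. The largest coefficients belonged to an unnamed miRNA gene (0.988), Y RNA (0.969) and a second unnamed miRNA gene (0.864). On scaffold_66759 (bases 956 to 1029) the first had 19.4 in bloom 9, 3.38 in bloom 5 and 0.269 to 1.82 in the other bloom libraries, against 0.120 to 1.17 in the non-bloom libraries. The second, on scaffold_69800 (bases 944 to 1014), had 18.3 in bloom 9, 3.98 in bloom 5 and 0.470 to 1.82 in the other bloom libraries, against 0.179 to 0.954 in the non-bloom libraries. SNORD58, close to RPL17-C18orf32, was steadier, with 8.76, 11.6 and 24.0 in bloom libraries and 7.53, 10.3 and 13.5 in non-bloom libraries.

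**Figure D4:**
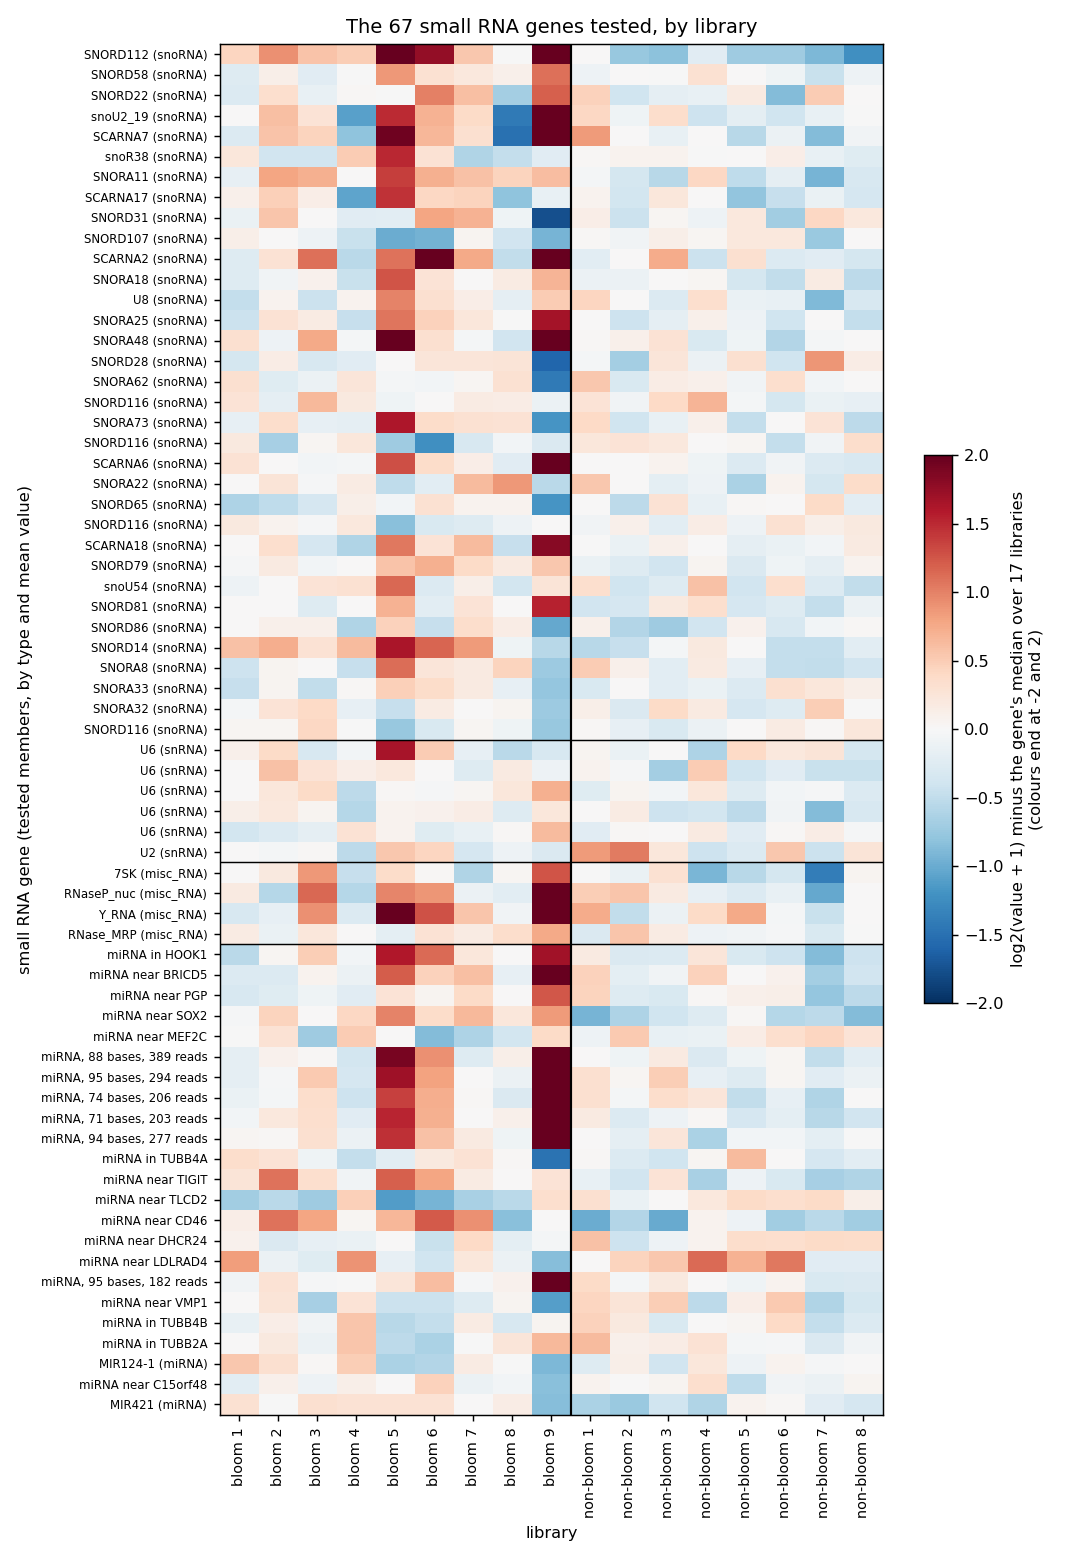
log2(value + 1) of each of the 67 tested small RNA genes minus that gene's median over the 17 libraries, with bloom 1 to 9 left of non-bloom 1 to 8, genes grouped by type and ordered by mean value, and unnamed miRNA genes labelled by host or nearest gene where the files give one. Bloom 9 is the highest library for 28 of the 67 genes and bloom 5 for 14, while bloom 9 has no read of some others, such as SNORA62.

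**Figure D5:**
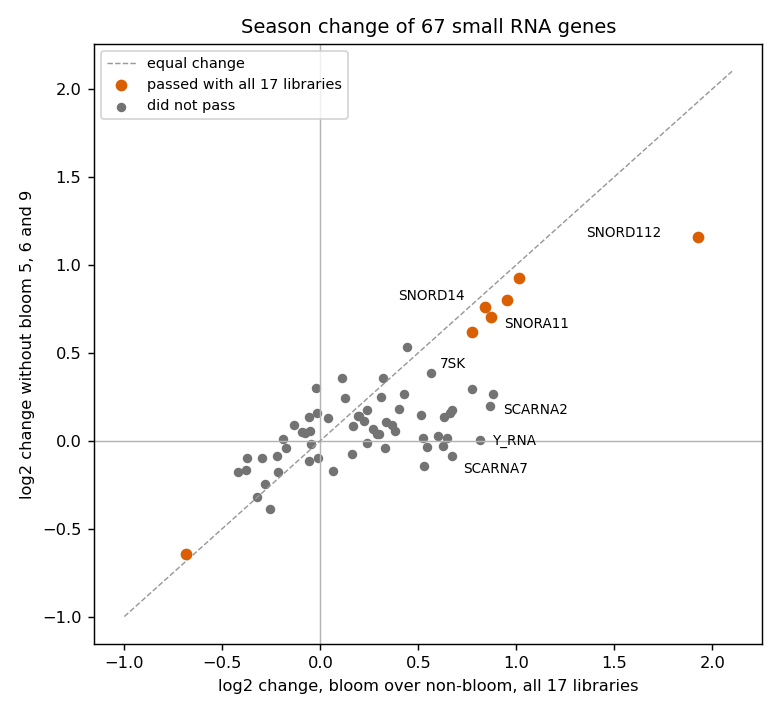
log2 change (bloom over non-bloom, log2(value + 1) scale) of each tested small RNA gene with all 17 libraries on the horizontal axis and without bloom 5, 6 and 9 on the vertical axis; the dashed line marks equal change. The 7 genes that passed kept their sign, whereas SCARNA7 and Y RNA lie near 0 on the vertical axis, at -0.09 and 0.01.

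The proteins that make and bind small RNAs were described from 10 lists. Of 167 tested genes 10 passed (5.99%, against 9.16% of all genes), 8 higher and 2 lower in bloom, and the median log2 change was 0.04. Among spliceosomal proteins 3 of 31 rose: PRPF3 of the U4/U6 particle (0.52, adjusted p = 0.0238 with limma), ZRSR2 of the minor spliceosome (0.67, adjusted p = 0.0296) and SNRNP70 of the U1 particle (0.61, adjusted p = 0.0299). Among proteins of snRNA transcription and snRNP assembly 3 of 32 rose, all subunits of the Integrator complex, which cleaves snRNA precursors: INTS8 (0.86), INTS10 (0.52) and INTS13 (0.78). INTS8 averaged 33.3 ± 11.3 in bloom and 17.6 ± 4.15 in non-bloom libraries (SD, n = 9 and 8, limma adjusted p = 0.0238).

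PARN, a nuclease that trims the 3′ ends of snoRNA and telomerase RNA, was the single gene of 18 in the exosome and trimming list to pass. It averaged 19.4 ± 5.72 in bloom and 32.3 ± 5.30 in non-bloom libraries and fell by 0.77 on the log2 scale (SE 0.21, adjusted p = 0.0367 with limma). RPP25, a subunit of RNase P and MRP, fell by 0.76 (adjusted p = 0.0281) and TEP1, a vault and telomerase protein, rose by 0.40 (adjusted p = 0.0453), as 2 of 14 genes in their list. GTF3C6 rose by 0.71 (adjusted p = 0.0471), the single gene of 22 in the RNA polymerase III list. It did not pass with edgeR (adjusted p = 0.0512) or without bloom 5, 6 and 9 (log2 change 0.47, adjusted p = 0.189). INTS13 did not pass with edgeR either (adjusted p = 0.0593), and ZRSR2, INTS10, INTS13 and TEP1 did not pass without those 3 libraries (adjusted p = 0.0579, 0.112, 0.114 and 0.121). In the remaining 5 lists 0 passed: of 11 box C/D proteins, 8 H/ACA proteins, 6 proteins of the 7SK particle, 8 signal recognition particle proteins and 17 proteins of miRNA biogenesis and silencing. At an unadjusted limma p under 0.05 there was 1 higher and 1 lower gene in each of the C/D and H/ACA lists, 1 higher in the 7SK list, 2 lower in the signal recognition list, and 3 higher and 1 lower in the miRNA list; edgeR called 1, LARP7. In these lists, NOP58, a box C/D core protein, reached 821 in bloom 9 and 69.1 to 191 in the other bloom libraries, against 50.2 to 97.3 in non-bloom libraries (log2 change 0.86, adjusted p = 0.107), and DROSHA, the nuclease that opens miRNA precursors, had 0.38 (adjusted p = 0.0559). LARP7, which binds 7SK, had 0.70 (adjusted p = 0.0639) in limma and passed with edgeR (adjusted p = 0.0487), but its log2 change was 0.27 (adjusted p = 0.246 with limma) without bloom 5, 6 and 9. Without them the change of NOP58 was 0.30 (adjusted p = 0.203 with limma). In the limma fit without these 3 libraries 1 gene of the miRNA list passed, higher in bloom.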

How the data were processed

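Total RNA of frozen cortex, 1 sample from each dolphin, was made into messenger RNA libraries, per the labels' protocols. Trim Galore 0.6.1 and STAR 2.5.2a are named in the submitters' processing notes. Not given in the sources used here were the counting tool, build, annotation and strand setting. The authors deposited a normalised signal for every gene, whose kind was read from the values. All nonzero values (100%) converted to whole reads within a tolerance of 0.01, with 7.38e-05 as the largest deviation; TMM library sizes recomputed from those reads differed by at most 0.000147%. No read fell on 3723 of 21265 genes.

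The filter was filterByExpr of edgeR by season (minimum count 10, minimum total 15), leaving 13548 genes. Season was tested with limma-trend on log2(value + 1), which understates changes of low genes, with Benjamini-Hochberg adjustment over all genes and 0.05 as threshold. The edgeR quasi-likelihood test on recovered reads called 1123 genes (8.29%). Equal-depth numbers are exact hypergeometric expectations. A count of 0 allows up to 3 reads; this limit includes counting error alone, because PCR copies are not independent molecules. Named were all small RNA genes that passed, the 6 most abundant and 3 most variable of each type, fixed families, overlapping protein-coding genes and, of each protein list, those that passed or the 2 with the smallest p; further genes were chosen after their values were seen. The members and lists were chosen with earlier results of these data known. Alternatives changed the pseudocount, filter, scaling, test, library weights, covariate or libraries; edgeR without bloom 5, 6 and 9 and scaling to non-mitochondrial reads were chosen after seeing the data. On simulated data for the season comparison (13548 genes), limma-trend recovered 60.8% of 97 genes changed by log2 1 and 94.2% of 103 changed by log2 2; 9 of its 165 calls were false. The simulation drew each gene independently, with no shift shared by libraries such as bloom 5, 6 and 9. Its shares therefore cannot be carried over to the real libraries. Versions were edgeR 4.0.16, limma 3.58.1 and DESeq2 1.42.0 in R 4.3.3, and scipy 1.17.1 in Python 3.11.15.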

Additional observations from a re-analysis of the deposited data

Results flagged for a closer look

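A library was looked at again where its gap to the nearest other library of its group was a large part of the group's range (Dixon's 95% critical value). This held for 20 of 74 tests. Chance flags about 1 in 20 independent groups, a rate that cannot be set against these tests, since they share libraries and nested sums and some genes were named for their spread. Of the 20, 15 were the high value of bloom 9, 3 of bloom 5 and 2 of a non-bloom library.

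In bloom 9 the sums of all small RNA genes (1630), snoRNA (689), snRNA (98.9) and misc_RNA genes (183) stood apart. So did single genes there: SNORD112 (362), the neighbouring unnamed miRNA genes near BRICD5 (130) and PGP (54.9), RNase P RNA (76.0), snoU2_19 (56.6), SCARNA7 (56.6), Y RNA (33.7), SCARNA2 (22.9), RNase MRP RNA (1.71) and the unnamed miRNA genes on scaffold_66759 (19.4) and scaffold_69800 (18.3). The value for RNase MRP RNA rests on 3 reads. In bloom 5, snoR38 (19.3), SNORA11 (15.3) and the leading U6 gene (14.1) stood apart. Among non-bloom libraries, SCARNA7 in non-bloom 1 (7.39) and RNase MRP RNA in non-bloom 2 (1.36) did.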

How the results depend on the processing

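The count of genes called (1241) became 560 with no filter, 3170 with DESeq2, 4123 with voom and library weights, 320 without bloom 5, 6 and 9, 188 with edgeR without them, 4 with the neuronal covariate and 547 with scaling to non-mitochondrial reads. Leaving out 1 library gave 61 (without non-bloom 2) to 2895 (without bloom 1). The 7 small RNA genes became 19 with DESeq2 (28.4%, against 23.4% of all genes) and 12 with voom (17.9%, against 30.4%). Without bloom 5, 6 and 9 the count was 3 (4.17%, against 2.34%), and 2 with edgeR (2.78%, against 1.38%). With the covariate it was 0, against 0.0295% of all genes. When 1 library was left out it was 1 to 9, where 0.447% to 21.5% of all genes passed. All 7 were called again with DESeq2, voom, relative log expression and upper-quartile scaling, 6 with edgeR and 5 with a pseudocount of 0.1 or no filter; they kept their sign under each alternative that tested them. Of 3032 genes 696 had at least 3 reads and 427 at least 10, against 1050 with 1. The log2 ratio of mean summed levels was 0.26 without bloom 5, 6 and 9.

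None of the reversed changes passed. Without bloom 5, 6 and 9, in limma and edgeR, the log2 change was -0.090 and -0.00214 for SCARNA7, -0.15 and -0.00669 for snoU2_19, -0.031 and -0.12 for the miRNA gene on scaffold_66759, -0.076 and -0.11 for the leading U6 gene and -0.17 and -0.14 for snoR38. In edgeR alone it was -0.00410 for Y RNA and -0.00378 for the miRNA gene near BRICD5. Voom gave -0.074 for that U6 gene and -0.32 for snoR38. The covariate gave -0.31 and -0.26 for these, and -0.00098 for snoU2_19. With 1 library left out, that U6 gene ran from -0.028 to 0.25 and snoR38 from -0.12 to 0.15. A U6 gene near YWHAQ (-0.01) had 0.011 with upper-quartile scaling, 0.00277 with the covariate and -0.093 to 0.034 with 1 library left out. The cause was not tested. No paired analysis was possible because each library came from its own dolphin and no label pairs the seasons. In bloom 9, 1 read is worth 0.571, so values under 1.71 there rest on fewer than 3 reads.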
